A study of Mus musculus with 6 samples.

Results

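The genes described here are 10 components of bone morphogenetic protein (BMP) signalling, out of 21938 protein-coding genes of the mouse annotation. They are the ligands Bmp2, Bmp4 and Bmp6, the type I receptor Bmpr1a, the signal transducer Smad1, the inhibitory SMADs Smad6 and Smad7, and the target genes Id1, Id2 and Id3. The rule that picks them is a list of names and uses no measured value, although the list was proposed with results of these data known. Each gene was given a window made of its gene body and 50 kb to either side of every annotated transcription start site (TSS). The windows held 22 of the 8282 regions in the combined GATA4 list, 9 of the 5170 regions in the combined GATA6 list, and between 46 and 73 called regions of any single library.

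The data came from CUT&RUN, which sequences the short DNA fragments that an antibody-guided nuclease releases around its target protein, here with antibodies against GATA4 and GATA6. The cells were untreated mouse extra-embryonic endoderm (XEN) cells, self-renewing cells that represent the primitive endoderm of the blastocyst, and the series asked where the 2 transcription factors sit in the genome before reprogramming begins. The labels give 3 libraries per factor, all from 500000 cells of the line 3F2, which was derived from mice that carry an Oct4-GFP reporter together with Col1a1 TetO-OKSmCh and R26 M2rtTA, so every library shares the doxycycline-inducible reprogramming cassette and the reporter. There was no second condition and no control library among the data used, so the comparisons below are between factors, between genes and with all other genes, and nothing in the labels says whether libraries of a factor came from separate cultures. Region lists hold no RNA level, so neither the XEN identity of the cells nor the expression of the 10 genes could be checked here.

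BMP ligands are secreted dimers that bring type I and type II receptors together at the cell surface. The type I receptor then phosphorylates SMAD1 and its relatives SMAD5 and SMAD9, which join SMAD4, enter the nucleus and activate genes such as the Id family. ID proteins lack a DNA-binding domain and sequester basic helix-loop-helix factors, while SMAD6 and SMAD7 are made in response to the signal and dampen it. In the early mouse embryo, BMP signals pass between the extra-embryonic layers and the epiblast, and XEN cells given BMP ligand acquire features of visceral endoderm. GATA4 and GATA6 recognise the motif WGATAR, which was searched on both strands as AGATAA as well as AGATAG, with A or T allowed as the first base.

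The 6 libraries held between 42446 and 49597 called regions each. The median of the maximum signal, the largest number of fragments stacked at one position of a region, was 4 in every library. The number of reads left after filtering is unknown for each library. Unscaled maximum signal was therefore compared between libraries only to choose the position on which sequences were centred. To rank regions, signal was turned into a percentile of total signal within the list of its own library, where 100 is the strongest region. Called regions were not evenly spread over the genome, and this touches Bmp4 and Bmpr1a on chromosome 14 and Smad1 on chromosome 8. Per library and 100 kb, chromosome 14 had 3.97 GATA4 and 4.01 GATA6 regions on average and chromosome 8 had 4.73 and 4.75, against 1.11 to 1.55 on the chromosomes of the other 7 genes.

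Of the 10 genes, 7 had at least 1 region of the combined GATA4 list, which holds regions called in all 3 GATA4 libraries. They were Bmp2, Bmp6, Bmpr1a, Smad6, Smad7, Id1 and Id3, and among all protein-coding genes the share was 48.2% (10564 of 21938). A region of the combined GATA6 list lay in the windows of 6 genes, the same ones without Bmp2, against 38.3% of all genes. Both lists had a region at these 6 genes, against 33.8% of all genes. The 3 genes with a region in neither list were Bmp4, Smad1 and Id2. Members are few, so the shares are given side by side and were not tested. Combined GATA4 regions lay within 1 kb of a TSS at Bmp6, Smad6, Smad7, Id1 and Id3, which is 5 of 10 genes against 19.8% of all genes. Combined GATA6 regions did so at Bmp6, Id1 and Id3, which is 3 of 10 genes against 13.8%.

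**Figure D1:**
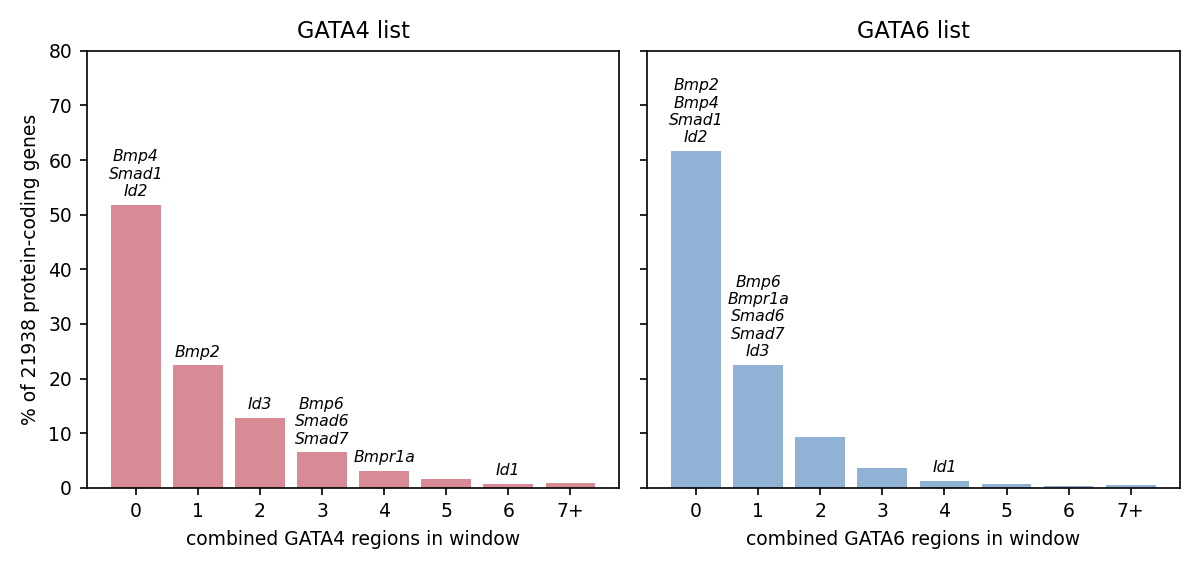
Bars give the percentage of 21938 protein-coding genes (vertical axis) by the number of combined GATA4 regions (left, red) or GATA6 regions (right, blue) in the gene's window (horizontal axis), and the names above a bar mark the members at that number. Id1 stands at 6 GATA4 and 4 GATA6 regions, while Bmp4, Smad1 and Id2 stand at 0 in both panels.

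The ligand genes differed from each other. Bmp6, which encodes a ligand of the BMP5/6/7 subgroup, had 3 combined GATA4 regions and 1 combined GATA6 region. Bmp2 had 1 GATA4 region and no GATA6 region, and Bmp4 had neither. The Bmp6 promoter was called in all 6 libraries. Its GATA4 region (chromosome 13, 38344485 to 38345180) covered the TSS at the 5′ end of the gene, and its GATA6 region (38344712 to 38345184) lay inside nearly the same bounds. Within the GATA4 libraries this promoter stood at percentiles 95.4, 85.1 and 70.9 in replicates 1, 2 and 3, with maximum signals of 13, 9 and 9. In the GATA6 libraries it stood at 89.0, 89.7 and 93.8, with maximum signals of 9, 8 and 11. Every library thus placed it at 70.9 or higher, and the positions of the maxima in the 6 libraries lay within 45 bp of each other. The region held none of the 4 forms of the GATA motif.

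The other Bmp6 regions were in introns of the gene. One (38351204 to 38352571) lay 5.05 kb downstream of a TSS, held 3 motif matches and was called in all 6 libraries, although the 3 GATA6 lists did not join there when merged on their own. The other (38450152 to 38451251) lay 55.7 kb from the nearest TSS of Bmp6 and 105 kb from the 5′ end of the gene. Its percentiles of 98.6, 86.1 and 94.0 in the GATA4 libraries were the highest on average of the GATA4 regions at Bmp6. GATA6 replicates 1 and 3 called it too, at 96.4 and 95.2, and GATA6 replicate 2 did not. The single Bmp2 region (chromosome 2, 133585792 to 133586357) was intergenic, 33.6 kb downstream of the only annotated TSS, with no other protein-coding gene in the Bmp2 window. It stood at percentiles 48.1, 73.2 and 79.6 in the GATA4 libraries and 91.4 in GATA6 replicate 1, and was absent from the lists of the other 2 GATA6 libraries.

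The reference sequence at 3 of these regions is shown because they are the strongest or the promoter-proximal region of their gene. Each stretch, from mm10 (GRCm38) on the plus strand, is centred on the position of maximum signal in the library with the highest maximum, reaches 100 bases to either side where no annotated untranslated exon intervenes, and has the GATA motif in capitals. The Bmp2 stretch held 1 match, with its centre at -29 from the maximum, the Bmp6 promoter stretch none, and the Bmp6 intronic stretch 1, at -79.
Bmp2 downstream, chr2:133585975-133586175: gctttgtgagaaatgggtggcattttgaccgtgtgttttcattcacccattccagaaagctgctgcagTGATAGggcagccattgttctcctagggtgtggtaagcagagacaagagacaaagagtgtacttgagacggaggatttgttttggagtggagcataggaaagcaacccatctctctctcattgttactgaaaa
Bmp6 promoter, chr13:38344933-38345106: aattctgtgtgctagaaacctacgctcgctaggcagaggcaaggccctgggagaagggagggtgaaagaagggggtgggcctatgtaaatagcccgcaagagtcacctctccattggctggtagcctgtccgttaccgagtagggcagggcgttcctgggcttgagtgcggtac
Bmp6 intron, chr13:38450703-38450903: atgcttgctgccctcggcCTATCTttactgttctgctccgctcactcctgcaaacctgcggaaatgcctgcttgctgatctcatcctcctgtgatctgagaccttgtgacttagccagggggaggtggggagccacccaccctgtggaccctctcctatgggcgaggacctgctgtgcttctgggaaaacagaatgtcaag

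Bmp4, the ligand best known from the extra-embryonic ectoderm and the epiblast, had called regions only in scattered libraries. Its window held 23 merged regions, of which 21 were called in 1 library and 2 in a pair of libraries. The region of the pair nearest to a TSS (chromosome 14, 46384408 to 46385094) was intronic, 2210 bp from it, and stood at percentiles of only 16.0 in GATA4 replicate 2 and 37.1 in GATA6 replicate 3. Within 1 kb of a Bmp4 TSS, only GATA6 replicate 2 called a region, at percentile 17.2.

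Bmpr1a encodes the type I receptor ALK3. It had 4 combined GATA4 regions and 1 combined GATA6 region, on a chromosome where 52.8% of genes had a GATA4 region and 53.2% a GATA6 region. None of them lay in the gene. The strongest was shared by both lists (chromosome 14, 34540508 to 34541246 for GATA4 and 34540556 to 34541269 for GATA6) and lay 37.2 kb upstream, in an intron of Ldb3, which encodes a sarcomere protein. Its percentiles were 94.5, 92.4 and 96.6 in the GATA4 libraries and 98.5, 97.7 and 98.3 in the GATA6 libraries, the highest GATA6 mean of any region in the 10 windows. The maximum signal was 11, 10 and 16 with GATA4, and 15, 11 and 17 with GATA6, and the 6 maxima fell within 60 bp of each other. It held no GATA motif. Ldb3 introns held 2 more GATA4 regions of the Bmpr1a window, and only the region at 4711 bp upstream (34508052 to 34509347) was intergenic. When a region was kept only for a gene whose body held it or whose TSS was nearest, Bmpr1a had 1 GATA4 region and no GATA6 region.

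The region nearest to Bmpr1a is printed as the only one that stayed with the gene under that rule. It stood at percentiles 86.4, 12.7 and 84.7 in the GATA4 libraries, so that replicate 2 placed it far lower than the others. The library with the highest maximum, GATA4 replicate 1, called 2 regions here that both reached 6, and the stretch is centred on the first of them, which stood at 66.9 in place of 86.4. The stretch held 3 matches, at -55, -28 and 35 from that maximum. The other libraries had their maxima elsewhere in the region.
Bmpr1a upstream, chr14:34508214-34508414: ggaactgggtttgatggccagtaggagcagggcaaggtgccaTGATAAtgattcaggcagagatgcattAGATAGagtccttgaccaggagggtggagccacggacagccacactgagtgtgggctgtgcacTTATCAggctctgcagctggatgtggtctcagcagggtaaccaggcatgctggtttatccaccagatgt
The Bmpr1a promoter itself was in neither combined list. A region over its TSS (34502561 to 34503589) was called in GATA4 replicates 2 and 3, at percentiles 58.9 and 36.2, and in GATA6 replicates 2 and 3, at 73.7 and 91.5. GATA4 replicate 1 called a separate region 275 bp from a TSS (34501100 to 34502253), at percentile 96.4. Within 1 kb of a TSS, 3 GATA4 and 2 GATA6 libraries thus called a region.

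**Figure D2:**
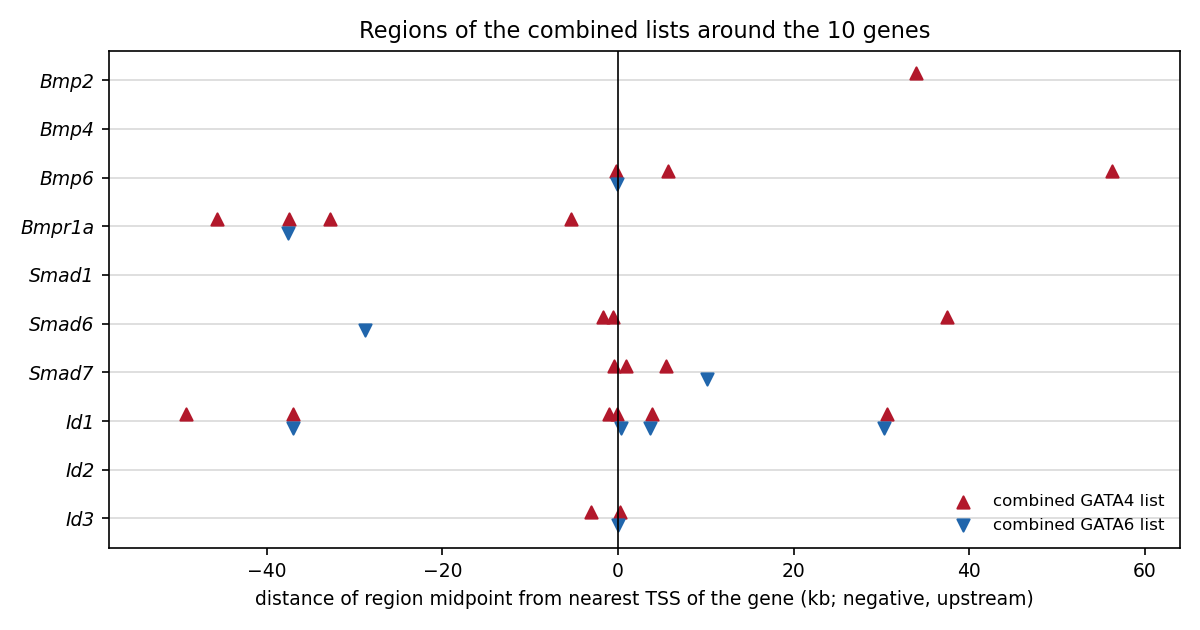
Each row is a gene, and each triangle marks the midpoint of a region of the combined GATA4 list (red, pointing up) or GATA6 list (blue, pointing down) by its distance in kb from the nearest TSS of that gene (horizontal axis). GATA4 and GATA6 regions coincide at the Bmp6, Id1 and Id3 promoters, 37.5 kb upstream of Bmpr1a and downstream of Id1, among other places. The rows of Bmp4, Smad1 and Id2 are empty.

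Smad1, the receptor-activated SMAD of the list, had no combined region of either factor, although on chromosome 8 a GATA4 region was found at 74.6% of genes and a GATA6 region at 70.3%. Its window held 42 merged regions, the most of the 10 genes, of which 32 were called in 1 library, 9 in a pair and 1 in 3. The last (79378526 to 79379334) was intronic, 20184 bp from a TSS, and was called in GATA4 replicate 3 and GATA6 replicates 1 and 3 at percentiles between 50.9 and 56.5. Within 1 kb of a TSS, regions were called in GATA4 replicates 1 and 3, at percentiles of up to 38.9 and 76.7, and in GATA6 replicates 1 and 3, at up to 73.8 and 66.8. They did not fall at one place, and the region over a TSS was called in GATA4 replicate 1 and GATA6 replicate 3 alone. If regions called in at least 2 of 3 libraries were taken, Smad1 had 2 GATA4 and 3 GATA6 regions.

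Smad6, which encodes an inhibitor that competes with SMAD4 for SMAD1 and also blocks BMP receptors, had 3 combined GATA4 regions, all in its own introns. The nearest to a TSS (chromosome 9, 64017084 to 64018053) lay 97 bp from an internal start and 4.01 kb from the 5′ end of the gene. Smad6 therefore had no combined region at its promoter when the 5′ end alone was used. The region at the internal start was called at percentiles 68.9, 75.5 and 92.4 in the GATA4 libraries and at 83.2 and 87.5 in GATA6 replicates 1 and 3. A second (64018361 to 64019058) lay 1.37 kb from that start. The third (63979193 to 63979738), 37.2 kb downstream, was a narrow region with percentiles of 6.34, 6.37 and 74.3 but maximum signals of 9, 8 and 5. The combined GATA6 region (64050394 to 64051426) was at another place, 28.3 kb upstream in an intron of 1110036E04Rik, and its percentiles of 93.3, 81.5 and 2.66 in the GATA6 libraries spread over nearly the whole scale. Some libraries also called regions at the 5′ end. One over that TSS (64021901 to 64022481) was called in GATA4 replicates 1 and 3, at 71.9 and 68.8, and GATA6 replicate 1, at 22.2. Another, 524 bp from it (64022583 to 64023375), was called in GATA4 replicates 1 and 2, at 56.6 and 93.9, and GATA6 replicate 3, at 81.3.
The stretch around the maximum of the Smad6 region at the internal start is shown because that region was the strongest by mean percentile and the nearest to a TSS. Its maximum signals in the GATA4 libraries were 4, 6 and 5, against 8, 6 and 7 at the second region and 9, 8 and 5 at the third. The stretch held 1 GATA motif, at -76, and 1 copy of GGCGCC, a GC-rich palindrome that BMP-activated SMADs can bind. The stretch is centred on the maximum of GATA4 replicate 2. The maxima of GATA4 replicates 1 and 3 lay outside it, 349 and 352 bp from the nearest motif match.
Smad6 internal start, chr9:64017146-64017346: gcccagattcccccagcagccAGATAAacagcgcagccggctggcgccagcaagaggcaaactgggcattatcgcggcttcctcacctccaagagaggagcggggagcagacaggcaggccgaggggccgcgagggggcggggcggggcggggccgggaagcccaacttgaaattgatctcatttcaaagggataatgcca

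Smad7, the inhibitor of both BMP and TGF-β type I receptors, also had 3 combined GATA4 regions. On chromosome 18 the first (75366762 to 75367426) lay 103 bp upstream of the TSS at the 5′ end, with percentiles of 60.0, 43.6 and 81.3 in the GATA4 libraries. The second (75375141 to 75376427) was intronic, 227 bp from an internal TSS, and was the strongest at 93.4, 90.8 and 97.7. It held 5 motif matches and was called in GATA6 replicates 1 and 2 at 90.4 and 90.8. The third (75380143 to 75380723) lay 5.23 kb from the nearest TSS. The only combined GATA6 region of Smad7 (75384702 to 75385443) was at another intronic place, 9.79 kb from the nearest TSS, at percentiles 69.0, 92.0 and 94.4 in the GATA6 libraries. Among the GATA4 libraries it was called in replicate 2 alone, at 85.8.

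Smad6 and Smad7 thus had regions of both combined lists and no place held by both lists. Each of the 6 GATA4 regions at these 2 genes was nevertheless called in at least 1 GATA6 library, and both GATA6 regions in at least 1 GATA4 library. Across all 10 windows, 0 merged regions had a call in every library of one factor without any call for the other factor. Of all 201994 merged regions, 748 (0.370%) were of this kind for GATA4 and 186 (0.0921%) for GATA6, so few or none would be found among 215 at these shares.

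Id1 had the most regions of the 10 genes. It encodes an inhibitor of basic helix-loop-helix factors and is a direct target of BMP-activated SMADs in many cell types. Its window held 6 combined GATA4 regions and 4 combined GATA6 regions. As many or more were found at 363 genes (1.65%) for GATA4 and at 614 genes (2.80%) for GATA6. Called regions were also dense here relative to the chromosome, with 8.34 times the density of chromosome 2 in the GATA4 libraries and 7.01 times in the GATA6 libraries. The window holds 4 other protein-coding genes, and 3 of the GATA4 regions and 2 of the GATA6 regions remained with Id1 when regions were kept only for the gene that held them or had the nearest TSS.

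The Id1 promoter was in both lists. The GATA4 region (chromosome 2, 152735809 to 152736554) and the GATA6 region (152735915 to 152737320) both covered the only annotated TSS, and the second ran through most of this short gene of 1160 bp. Percentiles were 38.1, 92.9 and 87.2 in the GATA4 libraries and 27.7, 97.9 and 91.5 in the GATA6 libraries, so replicate 1 of each factor placed the promoter well below the other 2. Just upstream, at 716 bp from the TSS, a second GATA4 region (152735017 to 152735535) stood at 65.3, 85.5 and 57.9. Downstream of the gene, a region in both lists (152739411 to 152740818 for GATA4) lay 3.16 kb from the TSS, at 89.7, 77.4 and 87.2 in the GATA4 libraries and 76.8, 52.6 and 79.1 in the GATA6 libraries.

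Further Id1 regions were distal and closer to other genes. The GATA4 region of highest mean percentile (152686455 to 152687527; 97.1, 88.3 and 90.6) covered the TSS of Mcts2, which lies inside an intron of H13, and 2 GATA6 libraries called it. A pair shared by the lists was intergenic, 30.4 kb downstream (152766616 to 152767153 for GATA4, 152765968 to 152767046 for GATA6), with Cox4i2 as the nearest gene. It stood at 94.9, 89.4 and 82.6 in the GATA4 libraries and 75.4, 96.4 and 97.3 in the GATA6 libraries, where the region of replicate 1 lay within the GATA6 bounds but outside the GATA4 bounds.

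The sequences at the Id1 promoter and at the downstream shared pair are shown because they differ in motif content. The downstream pair was added after its values were seen. The promoter stretch stops at the base before the TSS and held no GATA motif. The stretch 30.4 kb downstream held 3 matches, between 4 and 44 from the maximum. In it, 80.1% of the bases were C or T and 66.2% were marked as repeats in the reference.
Id1 promoter, chr2:152736130-152736250: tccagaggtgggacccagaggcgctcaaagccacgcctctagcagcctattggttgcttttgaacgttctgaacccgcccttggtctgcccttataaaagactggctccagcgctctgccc
Id1 downstream, chr2:152766758-152766958: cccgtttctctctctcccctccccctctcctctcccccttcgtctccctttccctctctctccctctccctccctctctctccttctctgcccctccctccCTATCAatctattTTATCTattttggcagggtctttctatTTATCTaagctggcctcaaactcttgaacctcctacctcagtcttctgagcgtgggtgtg
At this pair, the window of 100 bp to either side of the region midpoint held 3 motifs with the GATA4 bounds and 0 with the GATA6 bounds.

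Id3 had its main region at the promoter. It was called in all 6 libraries and was in both lists (chromosome 4, 136143207 to 136144156 for GATA4 and 136143066 to 136144008 for GATA6). Percentiles were 97.8, 97.8 and 88.2 in the GATA4 libraries and 96.6, 95.4 and 97.5 in the GATA6 libraries. The maximum signal reached 14, 17 and 10 in the GATA4 libraries and 15, 10 and 9 in the GATA6 libraries, above the library median of 4 in every case, and the 6 maxima lay within 55 bp of each other. Unlike the Id1 promoter, no replicate placed it low. Each of the 2 called regions held 2 motif matches but none within 100 bp of its midpoint. A second GATA4 region (136140189 to 136140576), 2.92 kb upstream, held 5 matches in 388 bp and stood at 31.2, 65.0 and 59.5 in the GATA4 libraries. GATA6 replicates 2 and 3 called it too, at 94.4 and 68.0, and GATA6 replicate 1 did not.

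Id2 had no combined region of either factor. In its window 7 of 8 merged regions were called in 1 library. The remaining one (chromosome 12, 25095897 to 25096521) lay over a TSS and was called in GATA4 replicates 1 and 3, at percentiles 56.6 and 92.2, and in GATA6 replicate 3, at 78.1. Within 1 kb of a TSS, all 3 GATA4 libraries but only 1 GATA6 library called a region at Id2, and the region of GATA4 replicate 2 lay apart from those of replicates 1 and 3. The 3 Id genes therefore ranged from 6 combined GATA4 regions to none.

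**Figure D3:**
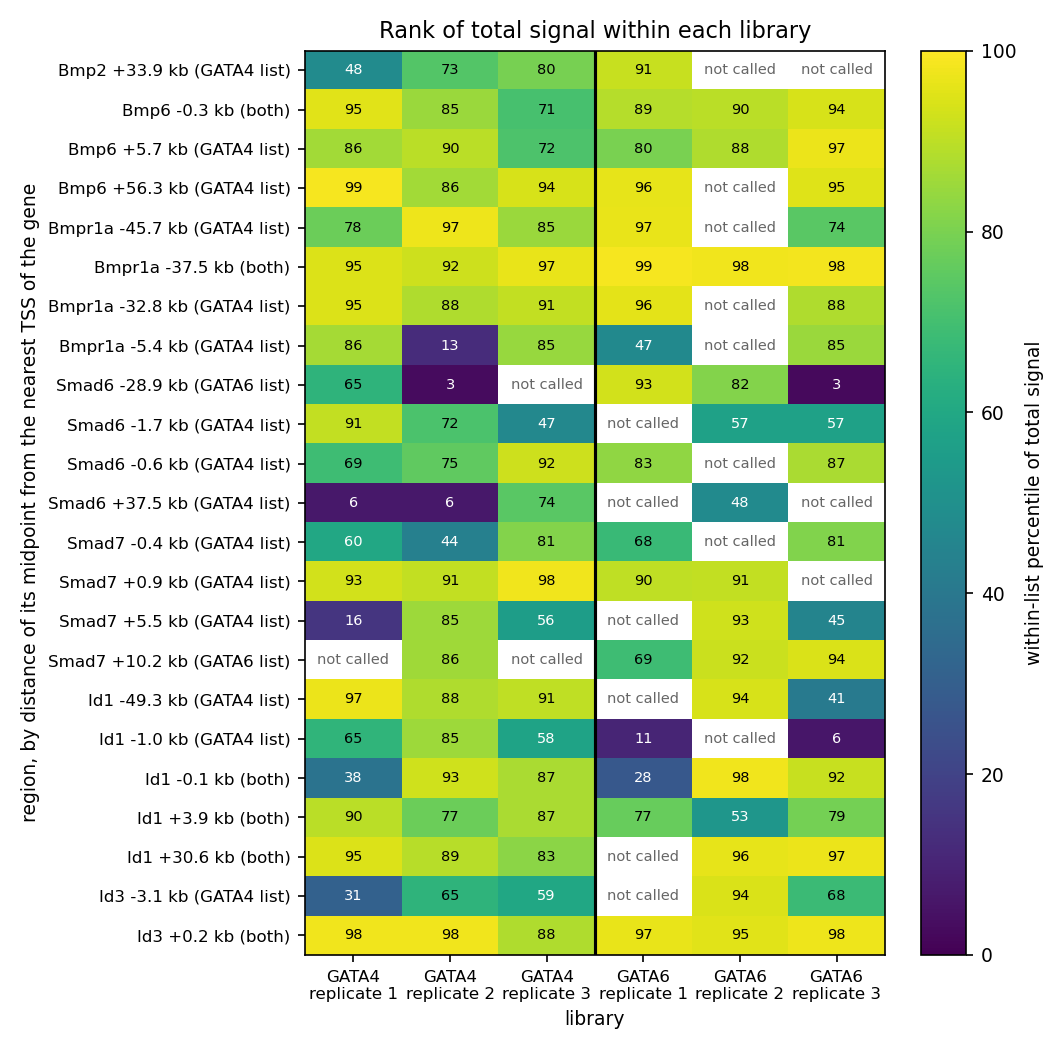
Rows are regions of the combined lists, named by gene and by the distance of its midpoint from the nearest TSS of that gene in kb, and each column is a library. Colour and number give the percentile of total signal within that library's list (0 to 100), and white cells are regions not called there. The Id3 promoter and the region 37.5 kb upstream of Bmpr1a stand at 88.2 or higher in all 6 libraries, while GATA6 replicate 1 and replicate 2 hold most of the white cells.

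The regions at the 10 genes were then compared with the lists they came from. Of the 22 GATA4 regions, 7 overlapped a combined GATA6 region (31.8%, exact 95% binomial interval 13.9 to 54.9), against 45.2% of the whole list. Of the 9 GATA6 regions, 7 overlapped a combined GATA4 region (77.8%, 40.0 to 97.2), against 72.3%. The intervals, which cover counting error over regions only, include the share of the whole list in both directions. The GATA motif stood near the midpoint, at 100 bp or less, in 9 of 22 GATA4 regions (40.9%, 20.7 to 63.6; whole list 39.9%) and in 3 of 9 GATA6 regions (33.3%, 7.49 to 70.1; whole list 33.1%). Away from any protein-coding TSS, 8 of 14 GATA4 regions at the 10 genes held it (57.1%; whole list 59.1%), and at a TSS 1 of 8 did (12.5%; whole list 17.6%). At the same distance from the midpoint, GGCGCC was found in 0 of 22 GATA4 regions (exact interval up to 15.4%). It was also in 1 of 9 GATA6 regions, the one at the Id3 promoter. Over the whole lists its share was 7.14% and 8.07%. The copy in the Smad6 stretch, centred on a maximum, lay more than 100 bp from the midpoint of its region.

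Promoter sequences of RefSeq (GRCm38.p6, from 250 bases before to 50 after the start) were matched for 7 of the 10 genes. The GATA motif was in the promoter of 1 gene, Id3, against 29.8% of 32851 promoters. GGCGCC was in 2, Bmpr1a and Id2, against 11.9%. A match is a string of letters and does not mark a bound site.

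By position, 12 of the 22 GATA4 regions had their midpoint in an intron, 9 between genes and 1 in an untranslated region. Of the 9 GATA6 regions, 4 were intronic, 3 intergenic, 1 in an exon of Id1 and 1 in an untranslated region. Their median widths of 718.5 bp and 742 bp were near those of the whole lists (742 bp and 724 bp). Within a factor, the position of maximum signal differed between the libraries by a median of 99 bp over the GATA4 regions and 117 bp over the GATA6 regions.

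After all 6 lists were merged, 215 regions lay in the 10 windows. Of these, 150 (69.8%) were seen in a single library, against 83.2% of all 201994 merged regions, and 8 (3.72%) in all 6, against 1.88%. The 8 were at Id1 (4), Bmp6 (2), Bmpr1a (1) and Id3 (1). Over the members, a window held a median of 7.67 called regions per GATA4 library and 5.17 per GATA6 library, against 3 and 2.33 over all protein-coding genes. These medians were matched neither for chromosome nor for window length, which ran from 100 kb at Bmp2 and Id1 to 205 kb at Bmp6.

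The factors were compared by the number of called regions per library in each window, with a two-sided exact permutation test over the 20 divisions of the 6 libraries, which cannot give a p below 0.1. Smad7 had 6, 9 and 10 regions in GATA4 replicates 1, 2 and 3 and 5, 4 and 3 in the GATA6 replicates. The groups did not overlap, and the means were 8.33 ± 2.08 and 4 ± 1 (SD, n = 3 each; exact p = 0.1). Id1 had 10, 13 and 11 regions for GATA4 and 7, 9 and 9 for GATA6. These too did not overlap, with means of 11.3 ± 1.53 and 8.33 ± 1.15 (SD, n = 3 each; exact p = 0.1). The 2 genes of 10 with more regions in every GATA4 library stand beside 5.36% of all genes. This share and the like shares below were not matched for region number. The median number of regions per window was lower over all genes than over the members, as given above. At Id1 the groups met when counts were divided by the number of regions in the library, whereas at Smad7 they stayed apart. With the window of 10 kb or with stricter lists, the groups overlapped at both genes (exact permutation p of 0.3 at Smad7 under each).

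Bmp4 was the only member with more regions in every GATA6 library, 1 of 10 genes against 1.49% of all genes and 3.10% of the 902 genes on chromosome 14. It had 3, 1 and 4 regions for GATA4 and 5, 7 and 5 for GATA6, with means of 2.67 ± 1.53 and 5.67 ± 1.15 (SD, n = 3 each; exact p = 0.1). The groups at Bmp4 also overlapped with the 10 kb window and with stricter lists. As described above, none of these regions was common to the 3 libraries of a factor. Relative to the density of chromosome 14, the Bmp4 window was at 0.649 times that density with GATA4 and at 1.37 times with GATA6.

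In the other 7 genes the groups overlapped. Bmp6 had 12, 8 and 5 GATA4 regions against 3, 6 and 6 GATA6 regions (exact p = 0.3). Smad6 had 10, 8 and 5 against 3, 5 and 5 (exact p = 0.3). In both, GATA4 replicate 3 was the library that reached into the GATA6 range. Smad1 had 10, 6 and 7 against 7, 12 and 11 (exact p = 0.3), and Bmpr1a 9, 17 and 11 against 8, 12 and 13 (exact p = 0.8). Bmp2, Id2 and Id3 each differed by a mean of 0.667 regions, with exact p between 0.6 and 0.9. At Id2, 4 regions in GATA4 replicate 3 and 4 in GATA6 replicate 3 stood against 0 or 1 in the other libraries.

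**Figure D4:**
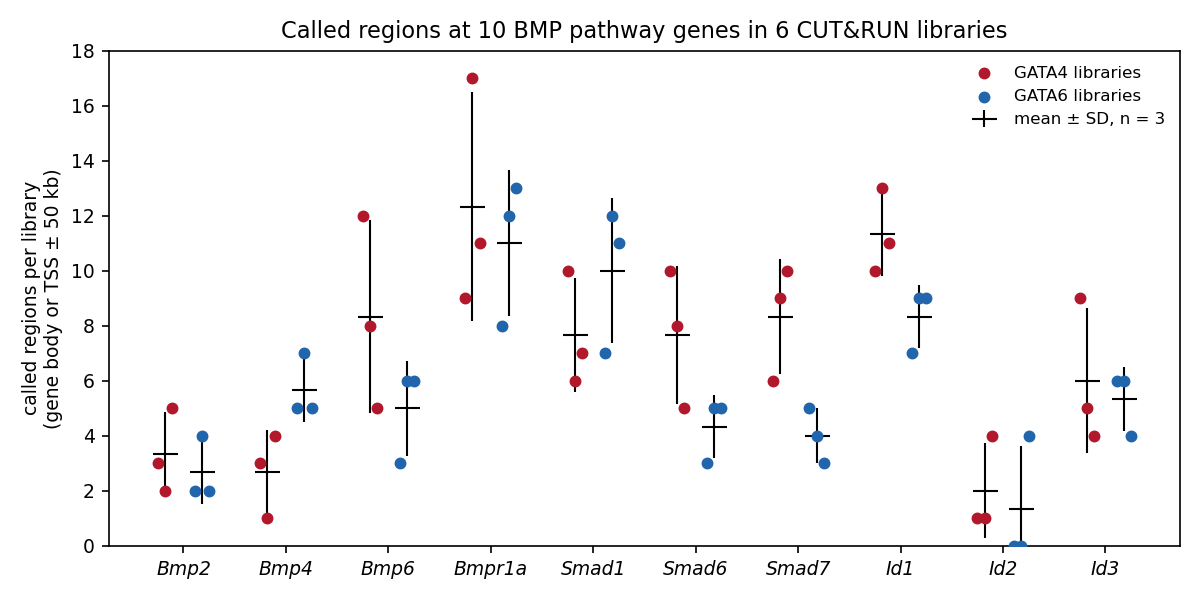
Points give the number of called regions in each gene's window (vertical axis) in each of the 3 GATA4 libraries (red) and 3 GATA6 libraries (blue), and black lines give the mean ± SD, n = 3. The points of the factors are apart at Bmp4, Smad7 and Id1 and overlap at the other 7 genes.

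The same windows were drawn around 44 other genes of the pathway. Of these, 15 (34.1%) had a combined GATA4 region, 13 (29.5%) a combined GATA6 region and 10 both, beside the 48.2% and 38.3% of all genes. The 3 other SMADs, Smad4, Smad5 and Smad9, each had regions of both factors. Among 5 inhibitors inside the cell or at its membrane, 3 had both, among them the ubiquitin ligase genes Smurf1 and Smurf2, whose products target SMADs and receptors for degradation. Of 8 other receptors and co-receptors, 4 had a GATA4 region and 1 a GATA6 region. The 11 antagonists and modulators outside the cell included 4 genes with a GATA4 region and 3 with a GATA6 region. Only 1 of 11 other ligand genes had a GATA4 region and 2 a GATA6 region, and of 6 other target genes 0 and 1 did. Smurf1, Smad5 and Twsg1, which encodes an extracellular BMP-binding protein, had regions of both lists within 1 kb of a TSS. The highest mean percentile of any such region, of either list, was 97.5, 97.3 and 84.8. By called regions per library, 5 of the 44 genes (11.4%) were higher in every GATA4 library and 3 (6.82%) in every GATA6 library, beside 5.36% and 1.49% of all genes.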

How the data were processed

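CUT&RUN libraries of GATA4 and GATA6 from XEN cells (3 per factor, grouped by title) were analysed. Per the labels and the study's methods, the authors mapped their paired-end reads to mm10 (Bowtie2 2.3.4.1), removed duplicates, reads of mapping quality under 20, mitochondrial reads and blacklisted regions, and called regions per library with SEACR 1.3, with no control named in the call. A cut-off of this kind largely sets how many regions each library yields. The methods text names a second line and fewer replicates; the labels were followed. The deposited library lists give total and maximum signal per region, unscaled for depth; the combined lists give positions only, and equalled the regions common to all 3 libraries in 8282 of 8282 and 5170 of 5170 cases.

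Genes and TSSs came from GENCODE M21 and sequence from GRCm38. Any overlap of 1 bp counted, and features and motifs were read at the midpoint. The members, the 44 pathway genes and the tests were chosen with earlier results of these data known. Regions named are, per gene, the strongest by mean percentile, the nearest to a TSS, and any exclusive to a factor; others were named after their values were seen. One Id1 region enters the counts and is otherwise not reported here. The interval and merging code was tested on simulated data. Alternatives covered windows, thresholds, numbers of replicates, overlap rules, motif windows and leaving out each library. The scripts ran under Python 3.11.15 with pysam 0.24.0, pandas 2.3.3, numpy 2.4.6, matplotlib 3.10.9 and scipy 1.17.1.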

Additional observations from a re-analysis of the deposited data

How the results depend on the processing

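Of 212 alternative values, 185 were counted as unchanged, 21 moved and 6 turned in sign. Counts could move some way: 15 and 31 GATA4 regions with windows of 10 and 100 kb, against 22, were counted as unchanged. Shares were unchanged if they stayed inside the exact binomial interval of the value reported, which is wide for few regions. The share of GATA4 regions overlapping a GATA6 region was so counted at 54.5% without GATA6 replicate 2, against 31.8%. The GATA6 motif share was so counted at 55.6% within 250 bp of the midpoint, against 33.3%. For differences in region count, 104 of the 185, unchanged meant only that the sign did not turn. With stricter lists the Bmp4 difference shrank from -3 to -0.333, and those at Bmp2, Bmpr1a, Id2 and Id3 fell to 0. With regions of at least 2 of 3 replicates there were 40 GATA4 and 28 GATA6 regions, 5 members with a GATA6 region at a TSS, and 57.5% of GATA4 regions overlapped a GATA6 region. Stricter lists left 14 GATA4 regions. Windows of 10 and 100 kb held 5 and 15 GATA6 regions. The GATA4 motif share was 72.7% within 250 bp of the midpoint and 81.8% anywhere in the region, and the GATA6 share 77.8% anywhere, by construction of wider windows. Over the whole lists, the share anywhere in the region was 70.8% for GATA4 and 64.5% for GATA6. Leaving out 1 library gave 14 to 17 GATA6 regions, the 17 without GATA6 replicate 1, since fewer lists had to agree.

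Members higher in every GATA4 library numbered 1 per 10000 regions of the library and 1 with equal-length lists (Smad7 in both), 0 with stricter lists and 1 with the 10 kb window (Smad6). Members higher in every GATA6 library numbered 0 with stricter lists and 0 with the 10 kb window. Leaving out a library gave 2 to 4 and 1 to 2 such members. The 4 arose without GATA4 replicate 3 (Bmp6, Smad6, Smad7 and Id1) and the 2 without GATA6 replicate 1 (Bmp4 and Smad1). The mean difference turned in sign at Bmpr1a with the 10 kb window (-1) and, leaving out a library, ran from -1 to 3 at Bmpr1a, from -0.833 to 1.67 at Id3, from -0.167 to 1.33 at Bmp2 and from -0.333 to 2 at Id2. The libraries behind the lowest values were GATA4 replicate 2, 1, 3 and 3.

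Same-numbered libraries deviated from their factor's mean with correlations of 0.0010 to 0.0015 over merged regions. Differently numbered libraries gave -0.0032 to 0.0019. Most merged regions were called in a single library, so correlations near 0 cannot decide whether the numbers pair the libraries. With the replicate block, 2 members were higher in GATA4 and 1 in GATA6 in every pair, as without it, and sign-flip p was 0.25 or more (exact; the smallest that 3 pairs allow). Filtered read numbers are unknown, so a single-library region may be a missed call elsewhere. The median maximum of 4 fragments limits how precisely weak regions can be placed. Chromosomes 8 and 14 held more called regions per 100 kb than those of the other members, and the part of this in the Bmp4, Bmpr1a and Smad1 counts was not tested.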

Other observations

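A further Id1 region shows how the combined lists depend on merging. On chromosome 2 from 152741318 to 152742734, downstream of the gene, regions were called in 3 GATA4 and 2 GATA6 libraries once all 6 lists were merged, but no stretch joined the 3 GATA4 lists when they were merged on their own, and the place is in neither combined list.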
